A study of Mus musculus with 8 samples.

Results

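The tubulin genes and the genes for proteins that fold, nucleate and modify tubulin were followed in RNA-seq of mouse testis, with 4 libraries whose genotype is labelled CTL and 4 whose genotype is labelled N6amt1-SKO. The study asked how N6AMT1, a methyltransferase that acts in a complex with TRMT112, takes part in the making of sperm. Members were chosen by gene symbol alone (tubulins alpha to epsilon, gamma-tubulin complex proteins, TTLL ligases, AGBL and AGTPBP1 carboxypeptidases, tubulin folding cofactors, vasohibins, stathmins and Hdac6). This gave 51 of the 17121 genes in the table, and all 51 were among the 17066 genes kept after a filter on low values. The labels do not spell out SKO, name no Cre driver or allele, give no age, and do not tie libraries to separate animals. The p-values here therefore reflect library-to-library spread, part or all of which may be technical. Libraries are called CTL 1 to 4 and SKO 1 to 4 here, after their group and replicate number, and values listed for a group are in that order.

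Microtubules are built from dimers of alpha and beta tubulin, and each comes in several isotypes that differ most in a short acidic tail at the end of the protein. That tail carries most of the known modifications. TTLL ligases add chains of glutamate or glycine to it, cytosolic carboxypeptidases shorten the glutamate chains, and vasohibins remove the last tyrosine of alpha tubulin, while HDAC6 takes an acetyl group off alpha tubulin elsewhere. Germ cells use these marks on the meiotic spindle, on the manchette (the microtubule skirt that surrounds the spermatid nucleus) and on the axoneme of the sperm tail. Mice without Ttll1, Ttll5, Agtpbp1 or Agbl5 are known for male infertility.

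The tissue is labelled testis, although heart ventricles are the tissue in the text on RNA extraction. All 13 elongating spermatid and all 12 pachytene spermatocyte markers were above 0 in all 8 libraries. Of 8 heart muscle markers, 4 (Actc1, Nppa, Myl2 and Myl3) are not among the genes of the table analysed here. The other 4 (Myh6, Myh7, Tnnt2 and Tnni3) were above 0 in all 8 libraries. Their normalised values ran from 131 (Myh7 in CTL 2) to 4658 (Tnni3 in SKO 3). The values are read counts scaled by a factor per library, with column totals of 94.2 to 103.1 M and about 40.6 to 258 M reads behind them (M for 10 to the power of 6). CTL 1 and CTL 2 were the deepest. CTL 3, CTL 4 and SKO 4 had 0.72% to 0.97% of their value in 18S ribosomal RNA, and the other 5 had 0.17% to 0.27%. This split, cut at 0.5%, crosses the groups and was treated as a pair of library sets. The labels name no such sets, and whether the split is technical was not tested. Mitochondrial genes took 1.13% to 1.99% of the value in CTL and 2.11% to 4.53% in SKO libraries, and the part of this difference in the results was not tested. N6amt1 itself had normalised values of 433 to 629 in CTL and 557 to 625 in SKO libraries (log2 fold change 0.19, standard error 0.17, limma adjusted p = 0.437). A value over the whole gene does not check a label whose targeted part is not given.

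The coding ends of some tubulins that bear on the results are printed here. Those of the alpha and beta tubulins spell the tails on which most of the modifying enzymes described below act. Each is the last 60 coding bases before the stop codon (GENCODE M21 principal transcript, GRCm38), 5′ to 3′, with in-frame glutamate codons (GAA or GAG) in capitals.
Tuba3a and Tuba3b: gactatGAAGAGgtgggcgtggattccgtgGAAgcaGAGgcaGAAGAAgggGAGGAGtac
Tuba4a: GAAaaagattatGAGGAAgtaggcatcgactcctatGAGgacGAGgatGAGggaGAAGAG
Tuba8: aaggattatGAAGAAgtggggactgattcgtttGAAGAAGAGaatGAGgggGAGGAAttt
Tubb4b: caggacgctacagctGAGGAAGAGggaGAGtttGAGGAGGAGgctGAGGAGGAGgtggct
Tubb5: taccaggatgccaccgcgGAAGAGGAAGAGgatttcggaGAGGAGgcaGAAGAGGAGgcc
Tubb3: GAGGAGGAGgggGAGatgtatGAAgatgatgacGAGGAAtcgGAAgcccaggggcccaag
Tubd1: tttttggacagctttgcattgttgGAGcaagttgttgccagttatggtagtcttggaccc
Of the 20 codons shown, 10 are glutamate codons in Tubb4b, 9 in Tubb5, and 8 in Tuba3a, Tuba3b, Tuba4a, Tuba8 and Tubb3. Delta tubulin (Tubd1) has 1, the gamma tubulins Tubg1 and Tubg2 have 2 each, and epsilon tubulin (Tube1) has 0. Tuba3a and Tuba3b end in the tyrosine codon tac, the residue that vasohibins remove. Tuba4a ends in gag, so its product is made without that tyrosine, and Tuba8 ends in a phenylalanine codon.

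Of the 51 members, 6 rose and 14 fell in the SKO libraries at a limma adjusted p below 0.05. Those 6 are 11.8% of the members, where 11.9% of all genes tested rose, and the 14 are 27.5%, where 7.93% of all genes fell. In either direction 39.2% of members and 19.9% of all genes passed. The median log2 fold change was -0.33 over the members and 0.04 over all genes tested. The groups did not overlap, with SKO higher, for 8 members, which was so for 15.6% of all genes, and, with SKO lower, for 14 members, which was so for 10.6% of all genes. The falls lay mostly in enzymes that add or remove glutamate: of 15 such genes, 10 fell by 1.44-fold to 1.90-fold and 0 rose. The rises were Tuba1a, Tuba1b, Tubb3, Tubb5, Ttll12 and Hdac6. In bulk testis, fewer cells of a type and less RNA per cell cannot be told apart.

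**Figure D1:**
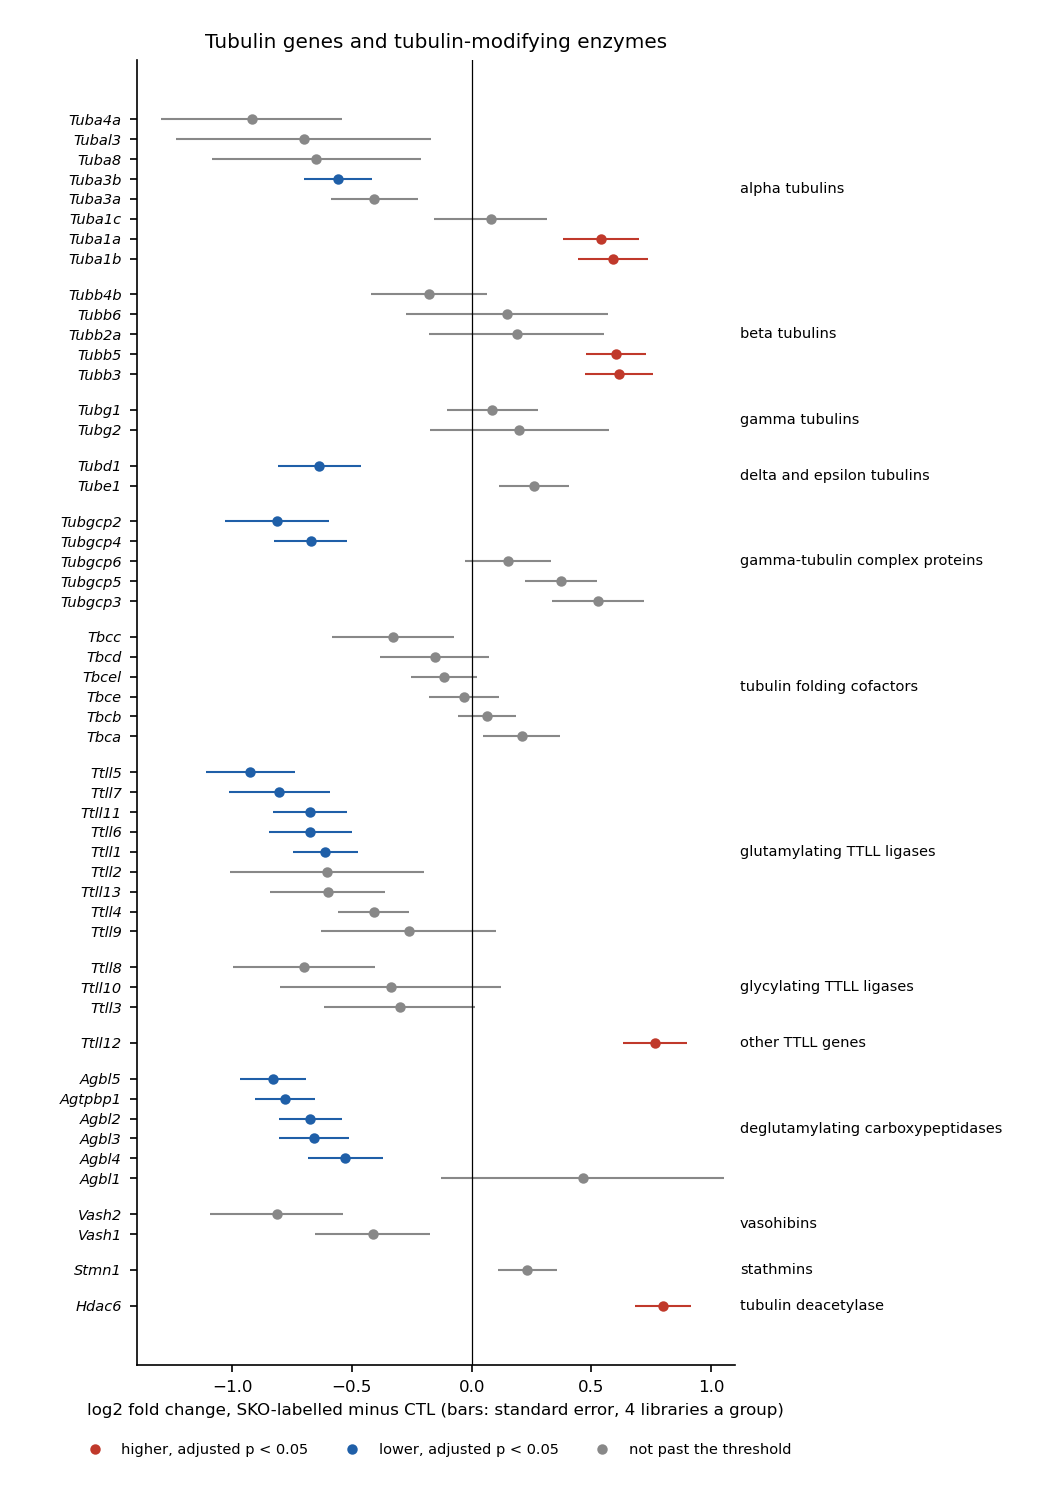
Log2 fold change of each of the 51 members (x axis, SKO minus CTL, bars show the standard error, 4 libraries a group), grouped by role. All 9 glutamylating TTLL genes lie below 0, from -0.92 for Ttll5 to -0.26 for Ttll9 (0.03 for Ttll9 when libraries are scaled by their totals), while Hdac6 and Ttll12 lie furthest above 0 among members past the threshold, at 0.80 and 0.76.

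These counts rest on all 8 libraries and on the scaling. Without SKO 3, no member and no gene of the table passed limma's threshold. The lowest adjusted p of a member was then 0.0569 (Agbl5), 23 of the 51 members had an unadjusted p below 0.05, among them all 20 called above, and no log2 fold change of those 20 moved by more than 0.11. The number of members risen and fallen was 3 and 6 without SKO 1, 4 and 5 without SKO 2, 3 and 13 without CTL 2, and 3 and 7 without CTL 3. Over all genes those 4 fits gave 4.03% to 6.50% risen and 2.75% to 6.98% fallen. Scaling by library totals instead of TMM factors moved the median over all genes from 0.04 to 0.33 and gave 10 members risen and 3 fallen (Agbl5, Agtpbp1 and Ttll5). These are 19.6% and 5.88% of the members, where 28.6% of all genes rose and 2.67% fell.

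The glutamylating TTLL ligases start or lengthen glutamate chains on alpha and beta tubulin tails such as those printed above. 5 of 9 fell (Ttll1, Ttll5, Ttll6, Ttll7 and Ttll11), 0 rose, and the median log2 fold change was -0.61. Those 5 are 55.6%, where 7.93% of all genes fell and 11.9% rose. Positions in brackets are on GRCm38, from GENCODE M21. Ttll5 (chromosome 12, 85824659 to 86061893), which starts chains mainly on alpha tubulin, had normalised values of 47487, 49582, 76117 and 75159 for CTL and 30679, 31234, 31294 and 34555 for SKO. All 4 SKO libraries lay below all 4 CTL libraries, and CTL 3 and CTL 4 stood well above CTL 1 and CTL 2. Its means were 62086 ± 15677 and 31941 ± 1765 (SD, n = 4 each), a 1.90-fold fall (log2 fold change -0.92, standard error 0.19, limma adjusted p = 0.0153).

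Ttll1 (chromosome 15, 83483769 to 83510893), the catalytic subunit of a multi-protein polyglutamylase, had values of 3696, 3838, 4788 and 4759 for CTL and 2714, 2668, 2733 and 2989.6 for SKO. Its groups did not overlap, and the SKO values lay close together. The means were 4270.4 ± 584 and 2776 ± 145 (SD, n = 4 each; log2 fold change -0.61, standard error 0.14, limma adjusted p = 0.0188). Ttll6 (chromosome 11, 96133786 to 96165451), which lengthens chains on alpha tubulin, had 16205, 19407, 15663 and 11993 for CTL and 11342, 10704, 8735 and 8598 for SKO. SKO 1, its highest SKO library, lay just below CTL 4, its lowest CTL library. With means of 15817 ± 3038 and 9845 ± 1386 (SD, n = 4 each), its fall was 1.60-fold (log2 fold change -0.67, standard error 0.17, limma adjusted p = 0.0277).

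Ttll7 (chromosome 3, 146852367 to 146984009), which acts mainly on beta tubulin, had 10605, 14095, 18743 and 10132 for CTL and 8113, 8004, 5922 and 7945 for SKO. CTL 3 was its highest library and SKO 3 its lowest. Its means were 13394 ± 3979.9 and 7496 ± 1052 (SD, n = 4 each; log2 fold change -0.80, standard error 0.21, limma adjusted p = 0.0295). Ttll11 (chromosome 2, 35751241 to 35979913), another chain-lengthening enzyme, had 9137, 9643, 8067 and 6855 for CTL and 6385, 4890.4, 4847 and 4929.9 for SKO. SKO 1 stood above the other 3 SKO libraries and still below CTL 4. Its means were 8426 ± 1236 and 5263 ± 749 (SD, n = 4 each; log2 fold change -0.68, standard error 0.16, limma adjusted p = 0.0204).

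Ttll13, the most abundant glutamylating ligase per kilobase of exon, did not pass the test. Its values were 47558, 59869, 37564 and 30042 for CTL and 36724, 29827, 25846 and 21372 for SKO, and CTL 4 lay below SKO 1. The means were 43758 ± 12916 and 28442 ± 6512 (SD, n = 4 each; log2 fold change -0.60, standard error 0.24, limma adjusted p = 0.0994). The other 3, Ttll2, Ttll4 and Ttll9, had log2 fold changes of -0.60, -0.41 and -0.26 with limma adjusted p-values of 0.31, 0.0749 and 0.645. In Ttll2, 57.7% of 100-base windows of its exons also occur in other genes, so its value is uncertain.

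Deglutamylating carboxypeptidases, which undo the work of these ligases, moved the same way, with a median log2 fold change of -0.67. Of these, 5 of 6 fell (83.3%) and 0 rose, where 7.93% of all genes fell and 11.9% rose. Agbl5 (chromosome 5, 30888694 to 30906965), the enzyme that removes the branch-point glutamate, was the most abundant of them per kilobase, with 100536, 112335, 132843 and 105858 for CTL and 64103, 65895, 64231 and 58668 for SKO. The SKO values lay within a narrow band far below the lowest CTL value. With means of 112893 ± 14148 and 63224 ± 3145 (SD, n = 4 each), its fall was 1.78-fold (log2 fold change -0.83, standard error 0.14, limma adjusted p = 0.0123). Reads from Ost4 on the opposite strand may add to it, since the kit does not mark strand and 9.60% of its exon bases overlap that gene.

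Agtpbp1 (chromosome 13, 59445742 to 59585227), whose loss gives the Purkinje cell degeneration mouse, had 29541, 32709, 32882 and 33111 for CTL and 20149, 20399, 18003 and 16375 for SKO. The groups were far apart, and its means were 32061 ± 1688 and 18731 ± 1904 (SD, n = 4 each; log2 fold change -0.78, standard error 0.13, limma adjusted p = 0.0123). Its row is identical to that of the RNA gene A230056J06Rik, so what the reads came from is uncertain. Agbl2 (chromosome 2, 90782727 to 90834437), which shortens glutamate chains, had 15966, 17233, 15398 and 15019 for CTL and 10206, 11163, 10402 and 8297 for SKO, again with no overlap. Its means were 15904 ± 968 and 10017 ± 1219 (SD, n = 4 each; log2 fold change -0.67, standard error 0.13, limma adjusted p = 0.0147).

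Agbl3 (chromosome 6, 34780432 to 34859459), a chain-shortening enzyme like it, had 7895, 9431, 10866 and 10577 for CTL and 5891, 6421, 5297 and 6868 for SKO. Even SKO 4, its highest SKO library, lay below CTL 1, its lowest CTL library. Its means were 9692 ± 1349 and 6119 ± 678 (SD, n = 4 each; log2 fold change -0.66, standard error 0.15, limma adjusted p = 0.0190). Agbl4 (chromosome 4, 110397661 to 111664324), which also shortens chains, gave the smallest of these falls, with 7529, 8101, 5488 and 6167 for CTL and 5382, 4275, 4425 and 4689.8 for SKO. SKO 1 and CTL 3 were nearly level. The means were 6821 ± 1203 and 4693 ± 490.4 (SD, n = 4 each; log2 fold change -0.53, standard error 0.16, limma adjusted p = 0.0432). Its call was lost under 12 of 23 alternatives, among them upper quartile scaling (limma adjusted p = 0.0617) and no variance trend (limma adjusted p = 0.0588). Agbl1 was close to the limit of detection, with about 6.12 to 221 reads a library, and its log2 fold change was 0.46 with a standard error of 0.59 (limma adjusted p = 0.611).

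**Figure D2:**
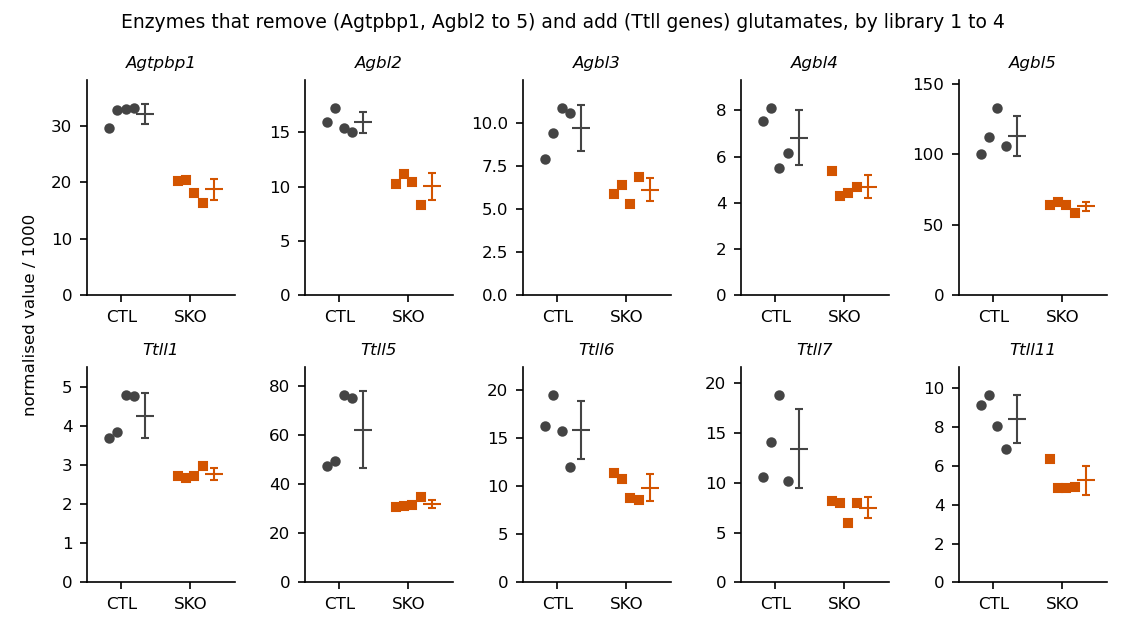
Normalised values divided by 1000 (y axis, from 0) of the 10 called glutamylating and deglutamylating enzymes in CTL (circles) and SKO (squares) libraries, with points in the order of replicate number and the mean and SD beside them. In each panel the highest SKO library lies below the lowest CTL library, by most for Agbl5, where the SKO libraries reach 65895 and the CTL libraries start at 100536.

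Pachytene spermatocyte markers were lower in the SKO libraries as well. 5 of 12 fell and 0 rose, where 7.93% of all genes fell. Their median log2 fold change was -0.50, and their summed value was 873385 to 981014 in CTL and 582172 to 643967 in SKO libraries. No listed marker was at 0 in any library. Of 13 round and 13 elongating spermatid markers, 0 rose and 0 fell, with a median of -0.17 for both lists, and their sums ranged from 37234 to 176436 (CTL) and 45322 to 118530 (SKO), and from 231136 to 1005290 (CTL) and 291082 to 783897 (SKO). The part of these cell types in the falls was not tested.

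The 3 glycylating ligases, which add glycine to axonemal tubulin, gave no call. Ttll10, the one with the highest level per kilobase, lengthens glycine chains and had 20093, 27303, 13408 and 5587 for CTL and 19232, 11532, 7748 and 9356 for SKO. It was high in CTL 1, CTL 2 and SKO 1 and low in CTL 4, so the groups overlapped widely. Its means were 16598 ± 9278 and 11967 ± 5086 (SD, n = 4 each; log2 fold change -0.34, standard error 0.46, limma adjusted p = 0.637). Ttll3 and Ttll8, which start glycine chains, had log2 fold changes of -0.30 and -0.70 (limma adjusted p = 0.527 and 0.119).

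Ttll12 (chromosome 15, 83575090 to 83595157), a TTLL family member with a SET-like domain, was the 1 TTLL gene that rose. Its values were 3509, 2778, 3462 and 3561 for CTL and 5652, 5709, 6189 and 5030.3 for SKO, and every SKO library lay above every CTL library. With means of 3327 ± 369 and 5645 ± 475 (SD, n = 4 each), its rise was 1.70-fold (log2 fold change 0.76, standard error 0.13, limma adjusted p = 0.0128).

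Hdac6 (chromosome X, 7930120 to 7947889), the cytoplasmic deacetylase of alpha tubulin, had the lowest p-value of the members. Its values were 9205, 8632, 8999 and 9692 for CTL and 16261, 16887, 16222 and 14312 for SKO. Both groups were tight, and the gap between them was wider than the spread within either. The means were 9132 ± 442 and 15920.2 ± 1115 (SD, n = 4 each), a 1.74-fold rise (log2 fold change 0.80, standard error 0.12, limma adjusted p = 0.0123). The vasohibins are the tyrosine carboxypeptidases. Vash2, the more abundant one per kilobase, had 11714, 16346, 16640.4 and 7238 for CTL and 8929, 8112, 5529 and 6016 for SKO, and CTL 4 lay among the SKO values. Its means were 12985 ± 4446 and 7146 ± 1633 (SD, n = 4 each; log2 fold change -0.81, standard error 0.28, limma adjusted p = 0.0645). Vash1 had a log2 fold change of -0.41 (limma adjusted p = 0.241).

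Among 8 alpha tubulins 2 rose (25%) and 1 fell (12.5%), and among 5 beta tubulins 2 rose (40%) and 0 fell. Of all genes tested, 11.9% rose and 7.93% fell. Tuba3a and Tuba3b, whose tails are the same and whose coding sequences are 96.97% identical, are the alpha tubulins best known from male germ cells. Tuba3b (chromosome 6, 145615757 to 145621479) fell, with 220525, 228887, 262437 and 205130 for CTL and 145832, 150359, 158892 and 165811 for SKO. The lowest CTL library was above the highest SKO library. Its means were 229245 ± 24217 and 155224 ± 8896 (SD, n = 4 each; log2 fold change -0.56, standard error 0.14, limma adjusted p = 0.0263).

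Tuba3a (chromosome 6, 125278274 to 125286042) had 208583, 209446, 156569 and 132561 for CTL and 142542, 125343, 137758 and 119421 for SKO and did not pass the test (log2 fold change -0.41, standard error 0.18, limma adjusted p = 0.137). CTL 4 lay among the SKO values. Of the 100-base windows along their exons, 12.3% of those of Tuba3a and 11.8% of those of Tuba3b also occur in another gene, so how the authors' counting shared reads between them is uncertain. Summed over both genes, values were 429108, 438333, 419005 and 337692 for CTL and 288373, 275703, 296650 and 285232 for SKO, with no overlap.

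Tuba1a and Tuba1b are alpha tubulins made in many tissues. Tuba1a (chromosome 15, 98949837 to 98953703) rose, with 8952, 9124, 7628 and 9423 for CTL and 14335, 15335, 11651 and 10278 for SKO. SKO 4 and SKO 3 lay nearest to the CTL values. Its means were 8782 ± 793 and 12899.7 ± 2340.2 (SD, n = 4 each; log2 fold change 0.54, standard error 0.16, limma adjusted p = 0.0402). Under 11 of 23 alternatives the call of Tuba1a was lost, among them median-ratio scaling (adjusted p = 0.0558), no variance trend (0.0556) and a length correction (0.100), all with limma. Tuba1b (chromosome 15, 98931425 to 98934565) had 6982, 6506, 6432 and 8968 for CTL and 10794, 12151, 10075 and 10214 for SKO. CTL 4 stood above the other CTL libraries and below every SKO library. Its means were 7222 ± 1189 and 10809 ± 948 (SD, n = 4 each; log2 fold change 0.59, standard error 0.14, limma adjusted p = 0.0237). Tuba1b lost its call under 9 alternatives, among them the length correction (limma adjusted p = 0.107). The pair is 98.3% identical over the coding sequence, and 65.1% and 69.5% of their windows occur elsewhere, so each is uncertain on its own. The sum of Tuba1a, Tuba1b and Tuba1c was 21588 ± 1938 in CTL and 29630 ± 4668 in SKO libraries (SD, n = 4 each).

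The beta tubulin Tubb5 (chromosome 17, 35833921 to 35838306), found in most tissues, had 15742, 14718, 16549 and 18309 for CTL and 24151, 27529, 24067 and 23376 for SKO. The groups did not overlap. Its means were 16329.5 ± 1518 and 24781 ± 1865 (SD, n = 4 each; log2 fold change 0.60, standard error 0.13, limma adjusted p = 0.0161). Tubb3 (chromosome 8, 123411424 to 123422015), best known from neurons, had 7262, 5892, 8339 and 6398 for CTL and 11770.4, 10009.7, 10429 and 10228 for SKO, and it too showed no overlap. Its means were 6972 ± 1072 and 10609 ± 793 (SD, n = 4 each; log2 fold change 0.61, standard error 0.14, limma adjusted p = 0.0205).

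Tubb4b, the most abundant beta tubulin per kilobase and a main beta tubulin of axonemes, had 152719, 156244, 95493 and 79627 for CTL and 129580, 98667, 94606 and 91889.6 for SKO. CTL 1, CTL 2 and SKO 1 were its 3 highest libraries and CTL 4 its lowest. Its means were 121021 ± 39203 and 103686 ± 17486 (SD, n = 4 each; log2 fold change -0.18, standard error 0.24, limma adjusted p = 0.640). Of its 100-base windows 29.15% also occur in other genes, so its value is uncertain. The other uncalled tubulins were Tuba1c, Tuba4a, Tuba8, Tubal3, Tubb2a and Tubb6, with log2 fold changes between -0.92 (Tuba4a) and 0.19 (Tubb2a). For Tuba4a the standard error was 0.38 (limma adjusted p = 0.109). Stk16, on the opposite strand, covers 37.3% of its exons. Tubal3 rested on about 13.9 to 286 reads a library. Tuba1c and Tubb2a are uncertain, since 53.4% and 36.9% of their windows also occur in other genes.

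Levels of the isotypes were compared per kilobase of exon, using the union of annotated exons, which understates genes with long rarely used exons. Tuba3a plus Tuba3b made 92.8% ± 0.537 of the alpha tubulin value per kilobase in CTL and 89.6% ± 1.67 in SKO libraries (SD, n = 4 each). The share was 92.1% to 93.4% in CTL and 87.7% to 91.5% in SKO libraries, so the groups did not overlap. The alpha family total was 265535 ± 32327 per kilobase in CTL and 194719 ± 5827 in SKO libraries. Among beta tubulins, Tubb4b took 84.2% ± 4.08 in CTL and 77.0% ± 1.95 in SKO libraries, and the family totals per kilobase were 68146 ± 19065 and 64304 ± 9106. These shares did not overlap either, but only just, since the lowest CTL share (CTL 4) was 79.948% and the highest SKO share (SKO 1) 79.928%. Tubb4b itself was not called, while Tubb3 and Tubb5 rose, and its shared windows leave these shares uncertain.

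**Figure D3:**
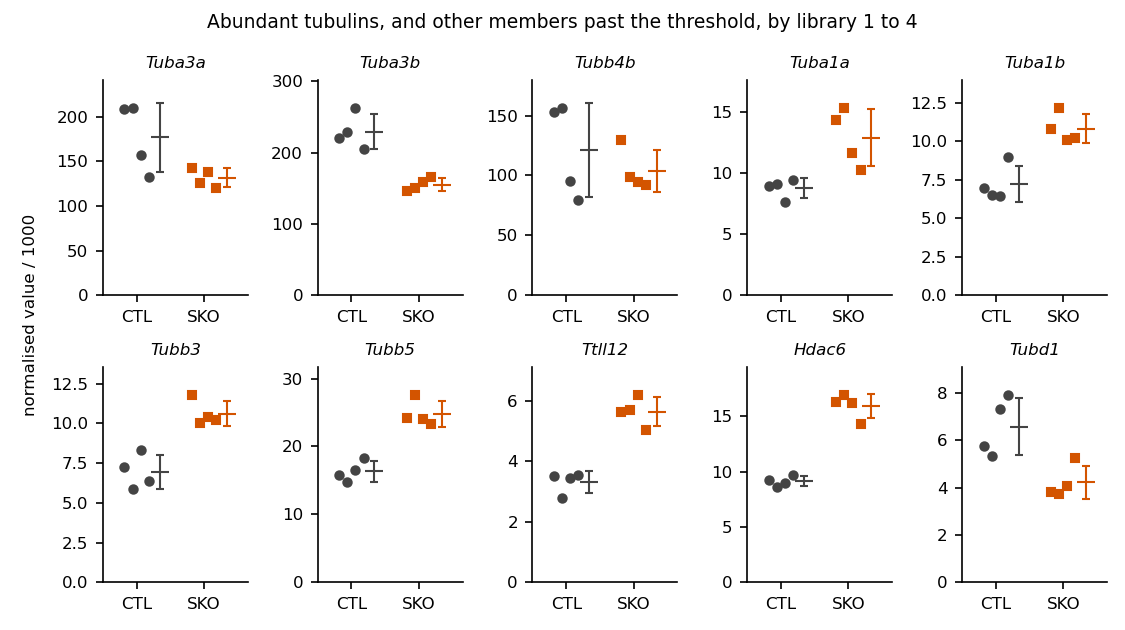
Normalised values divided by 1000 (y axis, from 0) of 7 tubulin isotypes, Ttll12, Hdac6 and Tubd1 in CTL (circles) and SKO (squares) libraries, with points in the order of replicate number and the mean and SD beside them. Tuba3b and Tubd1 are lower and Tuba1a, Tuba1b, Tubb3, Tubb5, Ttll12 and Hdac6 higher in all 4 SKO libraries than in any CTL library, while Tuba3a and Tubb4b overlap.

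Sertoli cell markers were higher in the SKO libraries, as the 4 risen isotypes, Ttll12 and Hdac6 were. Of 25 Sertoli markers 18 rose and 0 fell, with a median log2 fold change of 0.96 and a summed value of 151818 to 277340 in CTL and 306000 to 526238 in SKO libraries. Of 12 spermatogonial markers 5 rose and 0 fell (median 0.58, sums 55108 to 104643 in CTL and 68896 to 94560 in SKO). Dmrtb1 had by far the highest value of that list in every library, 31107 to 74907 in CTL and 33205 to 52595 in SKO. It was not called (log2 fold change -0.29), and the sums largely follow it. Of 7 peritubular myoid markers 4 rose and 0 fell (median 0.58). Of 8 Leydig, 9 macrophage and 8 endothelial markers 1 each rose and 0 fell, with medians of -0.05, 0.63 and 0.21. Of the 4 heart muscle markers measured, 2 rose (Tnnt2 and Tnni3) and 0 fell (median 0.86). Of all genes tested, 11.9% rose and 7.93% fell. No marker of these lists was at 0 in any library. The part of these cell types in the rises was not tested.

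Gamma tubulin nucleates microtubules within a ring of TUBGCP proteins. The gamma tubulins gave no call. Tubg1, by far the more abundant per kilobase, had 2721, 2902, 2498 and 1685 for CTL and 3032, 2364, 2266 and 2607 for SKO, and the groups overlapped. Its means were 2452 ± 537 and 2567 ± 342 (SD, n = 4 each; log2 fold change 0.09, standard error 0.19, limma adjusted p = 0.783). Tubg2, with about 15.1 to 157 reads a library, had a log2 fold change of 0.20 and a standard error of 0.37. In the ring, 2 of 5 TUBGCP genes fell (40%, against 7.93% of all genes). Tubgcp2 (chromosome 7, 139995955 to 140036669), a core ring subunit, had 10095, 12331, 17263 and 19312 for CTL and 7142, 9940.4, 8397 and 7302 for SKO. CTL 3 and CTL 4 stood far above the rest, while CTL 1 and SKO 2 were nearly level. Its means were 14750.1 ± 4268 and 8195 ± 1290.3 (SD, n = 4 each; log2 fold change -0.81, standard error 0.22, limma adjusted p = 0.0314). Zfp511 on the opposite strand covers 5.43% of its exons.

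Tubgcp4 (chromosome 2, 121170654 to 121198770), a subunit of the full ring, had 3868, 3516, 4368 and 5347 for CTL and 2554, 2590.4, 2656 and 2789 for SKO. The SKO values were tight and below every CTL value. Its means were 4275 ± 796 and 2647 ± 103 (SD, n = 4 each; log2 fold change -0.67, standard error 0.15, limma adjusted p = 0.0190). It is uncertain, since 25.4% of its exon bases overlap Trp53bp1 on the opposite strand. Tubgcp3, the partner of Tubgcp2, had a log2 fold change of 0.53 (limma adjusted p = 0.0773), Tubgcp5 0.37 and Tubgcp6 0.15.

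Delta and epsilon tubulin build the triplet microtubules of centrioles. Tubd1 (chromosome 11, 86544991 to 86567360) fell, with 5767, 5333, 7305 and 7891 for CTL and 3812, 3715, 4083 and 5249 for SKO. SKO 4 lay just below CTL 2, and the other SKO values were lower. Its means were 6574 ± 1219 and 4214 ± 707 (SD, n = 4 each; log2 fold change -0.64, standard error 0.17, limma adjusted p = 0.0336). Tube1 had a log2 fold change of 0.26 (limma adjusted p = 0.22), although its groups did not overlap.

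The 6 tubulin folding cofactors, which assemble the alpha and beta dimer after the chaperonin, gave no call, and their log2 fold changes lay between -0.33 (Tbcc) and 0.21 (Tbca). Tbca, which holds beta tubulin and was the most abundant per kilobase, had 5809.8, 5064, 4571 and 4143 for CTL and 5435, 4612, 6633 and 5979 for SKO. Its means were 4897 ± 716 and 5665 ± 856 (SD, n = 4 each; log2 fold change 0.21, standard error 0.16, limma adjusted p = 0.376). Tbcb, Tbcd, Tbce and Tbcel lay between -0.15 and 0.06. Stmn1, which binds free tubulin dimers and destabilises microtubules, was the only stathmin in the table. It had 18682, 19049, 16549 and 15117 for CTL and 20640, 19886, 19337 and 21403 for SKO, so all SKO values were above all CTL values, yet the difference did not pass (log2 fold change 0.23, standard error 0.12, limma adjusted p = 0.204). Its means were 17349 ± 1852 and 20316 ± 899.8 (SD, n = 4 each). Its value is uncertain, since 26.1% of its 100-base windows also occur in another gene.

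The pathway around these members was described from 7 lists holding 111 tested genes, of which 9 rose (8.11%, against 11.9% of all genes) and 19 fell (17.1%, against 7.93%), and without SKO 3 limma called 0, with 41 at an unadjusted p below 0.05. Of 4 partners of TTLL1 in its polyglutamylase complex 2 fell, Lrrc49 (log2 fold change -0.88, limma adjusted p = 0.0419) and Nicn1 (-0.63, limma adjusted p = 0.0221), and the values of Tpgs1 and Tpgs2 were 0.03 and -0.22. Nicn1 had 4186, 3952, 4975 and 5529 for CTL and 2667, 2889, 3387 and 3020 for SKO, with no overlap. Of 15 manchette and head-shaping microtubule genes 6 fell (40%) and 0 rose, with a median log2 fold change of -0.66. The largest falls past the threshold there were Rimbp3 (-1.20, limma adjusted p = 0.0123), needed for sperm head shaping, and the central pair gene Spag16 (-0.98, limma adjusted p = 0.0123).

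Of 8 severing genes 3 fell (37.5%) and 1 rose (12.5%), where 7.93% of all genes fell and 11.9% rose. Katnal2, a katanin-like severing gene, fell most (-0.81), and Fignl2 rose (1.06), with limma adjusted p-values of 0.0123 and 0.0244. Of 18 genes for gamma-tubulin recruitment and augmin 3 fell (16.7%) and 1 rose (5.56%). Among them were Cdk5rap2 (-0.96) and Pde4dip (-0.84), which anchor gamma-tubulin rings, and the augmin subunit Haus7 (0.89). Of 20 chaperonin and prefoldin genes 2 fell (10%), the testis chaperonin subunit Cct6b (-0.79) and Tcp1 (-0.75). Another 2 rose (10%), Pdcl3 (0.92) and the prefoldin subunit Vbp1 (0.65). Both shares lie near those of all genes.

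Among 41 microtubule-associated and end-binding genes 4 rose (9.76%) and 3 fell (7.32%), both below the shares of all genes, with a median of 0.03. Among those past the threshold, Eml5 (0.97) and Map7d2 (0.89) rose most, and the minus-end binders Camsap1 (-0.89) and Camsap2 (-0.58) fell most. In the list of other tubulin modification 1 of 5 genes rose (20%, against 11.9% of all genes), the deacetylase Sirt2 (0.55, limma adjusted p = 0.0453).

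Since the groups of all 20 called members do not overlap, their direction within the library sets is fixed by that, and the values below give sizes only. The fit of the set with less 18S RNA gave 8 members risen (15.7%) and 21 fallen (41.2%), where 18.8% of all genes rose and 13.4% fell. That of the set with more gave 0 risen and 3 fallen (Agbl5, Ttll5 and Tubgcp2), or 5.88% fallen, where 0.301% of all genes rose and 1.70% fell. In the set with less 18S RNA (CTL 1, CTL 2, SKO 1, SKO 2 and SKO 3), the 14 fallen members had log2 fold changes between -0.82 and -0.41, and the 6 risen members between 0.60 and 0.90. In the set with more (CTL 3, CTL 4 and SKO 4), they lay between -1.31 and -0.30 and between 0.29 and 0.62. Tubgcp2 differed most, with -0.41 (limma adjusted p = 0.0894) in the first and -1.31 in the second. Agbl5 had -0.72 and -1.01, Ttll5 -0.64 and -1.12, Agbl4 -0.74 and -0.30, and Hdac6 0.88 and 0.62. The second set has 1 SKO library, which is assumed to vary as the CTL libraries do.

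**Figure D4:**
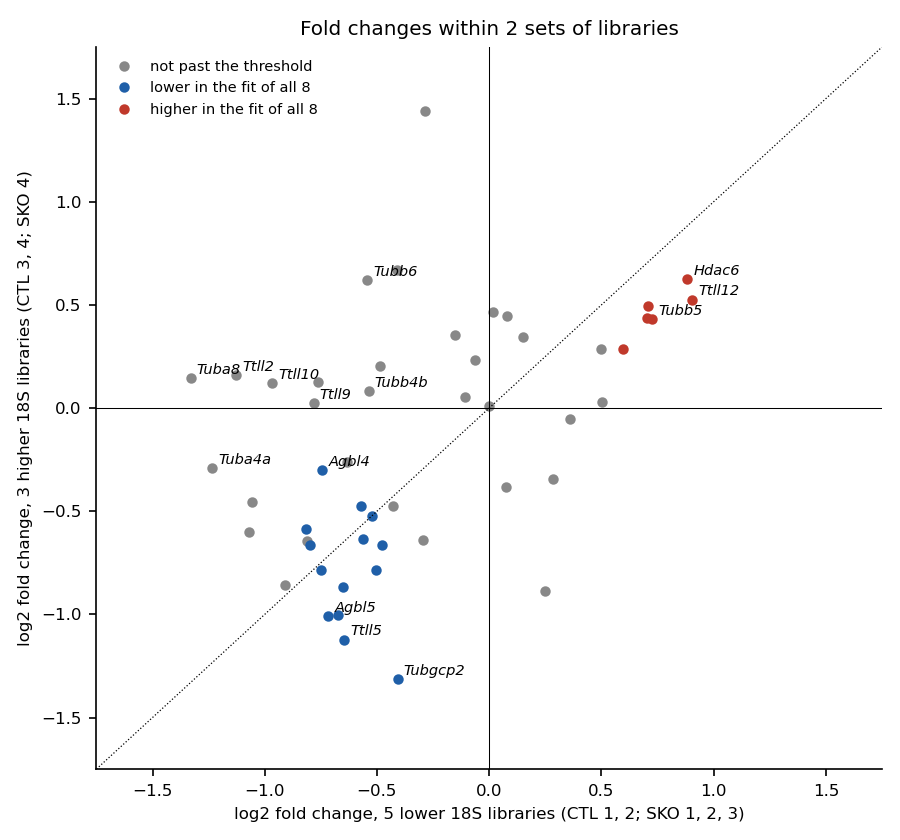
Log2 fold change of each member within the 5 libraries with less 18S RNA (x axis) and within the 3 with more (y axis), coloured by the result over all 8 libraries. Tubgcp2 lies furthest down (-0.41 and -1.31) and Ttll12 furthest right (0.90 and 0.53), and some members whose groups overlap lie far from the dotted line of equal values, such as Tuba8 (-1.33 and 0.14).

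Some uncalled members varied more between libraries of the same group than between the groups. CTL 1, CTL 2 and SKO 1 were the 3 highest libraries for 9 of the 51 members (17.6%). Over all genes tested the share was 12.9%, so this order is not particular to the members. The 9 were Tuba8, Tubal3, Tubb2a, Tubb4b, Tubb6, Tubg1, Ttll3, Ttll9 and Ttll10. Such an order makes the groups overlap, so no called member could be among them. Tuba8, a minor alpha tubulin, had 14687, 18064, 9335 and 4989 for CTL and 12679, 4709, 4561 and 7500 for SKO. The summed value of the 13 elongating spermatid markers had the same 3 highest libraries, with 834346, 1005290 and 783897 in CTL 1, CTL 2 and SKO 1 against at most 495434 in the other 5. These 3 libraries are 3 of the 5 with less 18S RNA. The part of spermatid content in this pattern was not tested.

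**Figure D5:**
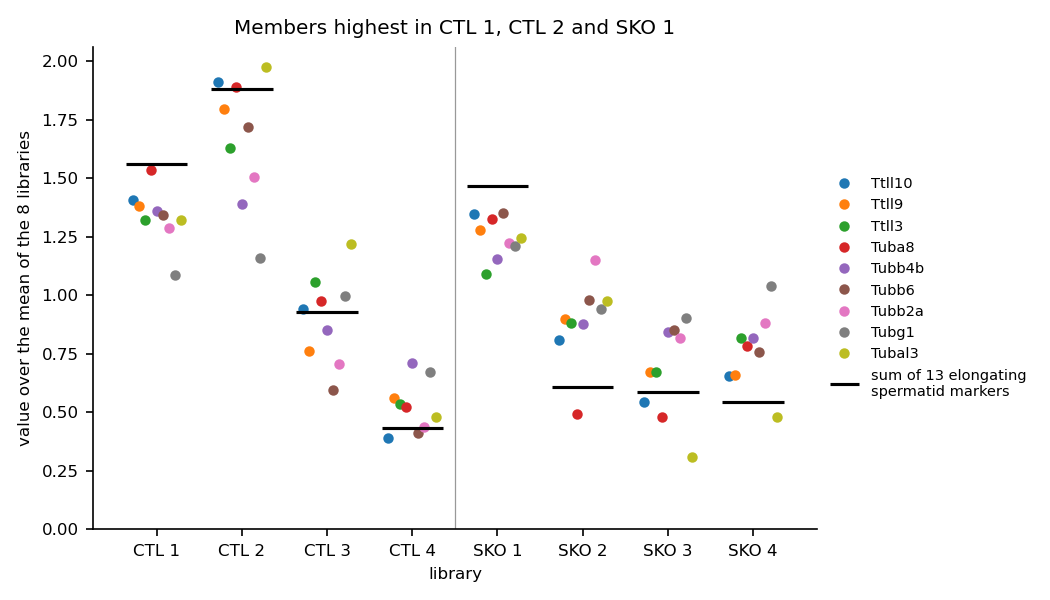
Value over the mean of the 8 libraries (y axis, from 0) for the 9 members whose highest libraries were CTL 1, CTL 2 and SKO 1 (dots), by library, with the sum of 13 elongating spermatid markers as black bars. CTL 2 is highest for 8 of the dots and for the bars, and CTL 4, in the same group, is the lowest bar.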

How the data were processed

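Gene values of 8 mouse testis libraries (4 CTL, 4 N6amt1-SKO) come from 1 table. The authors deposited a score per gene: whole numbers that are read counts times a library-specific factor, as the gaps between values show; the scaling method is not stated in the labels. The submitters' processing notes list HISAT2 2.0.5, featureCounts 1.5.0-p3, fastp and CASAVA, and build mm10; how reads shared by genes were counted is not stated. Per the labels' protocols, the NEBNext Ultra RNA kit was used, which does not mark strand. The highest library of every gene reached at least 95, and 204 rows are identical to another row.

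Each library was scaled by TMM (trims of 30% and 5%), and genes were kept at 25 or more in at least 4 libraries, then taken as log2(value + 5) and tested between the groups with limma 3.58.1 in R 4.3.3, with variances that follow the mean, no covariate, two-sided, and Benjamini-Hochberg adjustment over 17066 genes. Fold changes are on that scale and so are too small for low genes. Normalised values, means and SDs are after TMM scaling. Estimated reads divide a value by its library's factor, which is below 1 and less certain for CTL 1 and CTL 2. Lengths and overlaps come from GENCODE M21. Markers and pathway genes were matched by symbol.

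The members, lists, added constant and filter were chosen with earlier results of these data known. Named were every member, with full values for called members and for the one with the highest value per kilobase in each role, and up to 2 risen and 2 fallen genes of each pathway list. Some items that this rule would name, and some sequences, are not reported here. Alternatives were other scalings, constants, filters and variance models, libraries left out, library sets, a length correction and a replicate block.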

Additional observations from a re-analysis of the deposited data

Results flagged for a closer look

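In 5 of 102 groups of 4 libraries (51 members, both groups) 1 library lay far from the other 3 for the spread of its group; chance alone gives this in about 5% of groups. Agtpbp1 in CTL 1 was low at 29540, with the next CTL library at 32709. Ttll5 in SKO 4 was high at 34560, with the next SKO library at 31294. Ttll11 in SKO 1 was high at 6385, with the next at 4930. Ttll7 in SKO 3 was low at 5922, with the next at 7945. Ttll12 in CTL 2 was low at 2778, with the next at 3462.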

How the results depend on the processing

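The 20 called members were refitted under 23 alternatives. Of 460 values, 355 stayed past the threshold and 105 lost it; Agbl4 lost its call in 12 of 23, Tuba1a in 11, Tuba1b in 9, and Agbl5 and Ttll5 in 1 each (without SKO 3). Of the 31 uncalled members, 20 passed under some alternative and 18 had the other sign under some alternative, without passing there against their direction. Members risen and fallen numbered 6 and 14 in the main fit. They numbered 10 and 3 with library totals, 9 and 28 with array weights, 3 and 13 without the 2 most deeply sequenced libraries, 0 and 3 in the libraries with more 18S RNA, and 3 and 15 with a length correction. With array weights 17.6% of members rose and 54.9% fell, where 31.2% of all genes rose and 27.5% fell. The length correction gave 5.88% and 29.4% of members, where 12.0% of all genes rose and 11.9% fell. Without the 2 deepest libraries the members gave 5.88% and 25.5%, where 10.6% of all genes rose and 13.7% fell. Leaving out 1 library gave 0 to 8 members risen and 0 to 18 fallen.

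Pathway genes risen and fallen numbered 9 and 19. They numbered 22 and 8 with library totals, 27 and 51 with array weights, 15 and 34 in the libraries with less 18S RNA and 0 and 3 in those with more. 36 fell without the 2 deepest libraries, and 32 with the 18S set as a covariate. Leaving out 1 library gave 0 to 11 and 0 to 24.

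All genes risen and fallen numbered 2038 and 1354. They numbered 4885 and 456 with library totals, 5320 and 4700 with array weights, 3194 and 2283 in the libraries with less 18S RNA and 51 and 287 in those with more. 2322 fell without the 2 deepest libraries, and 2210 with the 18S covariate. Leaving out 1 library gave 0 to 2455 and 0 to 1526. Fewer samples or genes enter the fits that leave out libraries or correct for length. The cause of the changed counts was not tested for any alternative.

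With the replicate number as a replicate block, 6 members rose and 17 fell, and 2162 and 1701 of all genes. Deviations of same-numbered libraries correlated at 0.67, 0.01, 0.08 and 0.23, so the numbers were not taken to pair the samples, and not every library correlated best with its own number. A count model was not run, since the values are not raw counts. Depth limits Agbl1, Tubal3 and Tubg2 most, with as few as 6.12, 13.9 and 15.1 estimated reads in a library.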
